A study of Mus musculus with 9 samples.

Results

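Genes of DNA replication and mitosis were followed in 9 RNA sequencing libraries of mouse duodenal organoids. The set was a list of 54 genes, 25 that act in S phase and 29 that act in mitosis, found by symbol among the 46517 genes of each expression table, and all 54 were present. Organoids are small epithelial structures grown in culture from intestinal crypts, here from wild-type C57BL/6 mice. They were grown in Matrigel with a conditioned medium that supplies Wnt3a, R-spondin 3 and noggin. The study cultured its mouse duodenal organoids, with no exception given for the control, at an oxygen level below that of air. After transduction the medium also held a ROCK inhibitor, a TGF-beta receptor kinase inhibitor and nicotinamide. Dissociated cells of all 3 groups were exposed to an adenovirus, 50 particles for each cell, and their RNA was taken 72 hours afterwards. The Ad-GFP group carried green fluorescent protein as control, the Ad-hHIF2 group human HIF2 and the Ad-hHIF1 group human HIF1. HIF2 and HIF1 are the transcription factors that cells stabilise when oxygen is low, and both transgenes had the prolines replaced by which the VHL protein marks them for degradation. The GFP vector used the viral CMV promoter, which does not select a cell type, and the promoter of the HIF vectors is not given in the sources used here. Each group had 3 libraries, numbered replicates 1, 3 and 4, and values below are given in that order. The study calls the 3 libraries of a group biological replicates, but the labels do not say that they came from separate animals, so the p-values measure the spread between these libraries. All libraries are bulk RNA, in which fewer dividing cells and less of a transcript per dividing cell cannot be told apart.

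Before a cell divides it copies its genome in S phase. Licensing factors load the MCM helicase onto replication origins, the helicase unwinds the DNA, and polymerases with their sliding clamp copy it from deoxynucleotides that a separate group of enzymes supplies. In mitosis, CDK1 with its cyclins condenses the chromosomes and builds the spindle, a checkpoint waits until every chromosome is attached, and the anaphase-promoting complex then has cyclins and other proteins degraded. The intestinal crypt is among the fastest renewing tissues of the body, and proteins such as MKI67 and PCNA are used there as marks of dividing cells. The 2 groups of genes are switched on at different times of the cycle, the S-phase genes largely through E2F sites in their promoters and the mitotic genes through a cell cycle homology region (CHR), often placed close to CCAAT boxes.

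Printed here are 8 promoters, as examples of how the 2 groups of genes differ in these elements, for genes whose levels are described below. Each is the 200 bases before the RefSeq transcript start on GRCm38.p6, along the strand of the gene. Capitals mark matches on either strand to the CHR (TTTGAA or TTCGAA), the CCAAT box (CCAAT), the E2F core (TTTGGCG or TTTCCCG, and also the 2 forms TTTCGCG and TTTGCCG) or the core of a hypoxia response element, the site that HIF proteins bind (ACGTG or GCGTG). Rrm1 lies at chr7:102441695-102469771 on the plus strand in the GENCODE annotation and its printed stretch at chr7:102441495-102441694. Rrm2 lies at chr12:24708241-24714146 on the plus strand, with the printed stretch at chr12:24708054-24708253. Both encode ribonucleotide reductase, and the first stretch holds 2 CCAAT boxes and the second 1 CCAAT box and 1 hypoxia response element core. Mcm6 lies at chr1:128331590-128359664 on the minus strand, and its stretch at chr1:128359706-128359905 holds 3 E2F cores, 2 CCAAT boxes and 1 hypoxia response element core. Tyms lies at chr5:30058202-30073617 on the minus strand, and its stretch at chr5:30073626-30073825 holds a palindromic CACGTG that counts as 2 hypoxia response element cores.
Rrm1: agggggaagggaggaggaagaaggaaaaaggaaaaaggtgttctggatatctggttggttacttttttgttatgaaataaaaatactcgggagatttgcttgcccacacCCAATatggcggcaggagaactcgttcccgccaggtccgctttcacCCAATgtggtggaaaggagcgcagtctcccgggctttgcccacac
Rrm2: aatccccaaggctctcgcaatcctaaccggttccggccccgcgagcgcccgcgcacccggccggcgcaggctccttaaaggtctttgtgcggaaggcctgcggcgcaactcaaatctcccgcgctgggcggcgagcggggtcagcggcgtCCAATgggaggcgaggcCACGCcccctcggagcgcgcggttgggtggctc
Mcm6: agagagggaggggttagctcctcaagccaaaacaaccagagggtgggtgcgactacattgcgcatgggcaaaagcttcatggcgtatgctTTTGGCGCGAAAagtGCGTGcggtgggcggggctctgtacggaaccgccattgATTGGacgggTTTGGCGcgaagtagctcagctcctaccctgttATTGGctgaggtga
Tyms: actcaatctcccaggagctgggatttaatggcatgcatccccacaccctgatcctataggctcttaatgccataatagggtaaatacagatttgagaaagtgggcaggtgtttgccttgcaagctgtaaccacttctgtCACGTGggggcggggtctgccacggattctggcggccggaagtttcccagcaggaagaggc

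The mitotic examples all hold a CHR close to the transcript start. Ube2c lies at chr2:164769898-164778822 on the plus strand, and its stretch at chr2:164769729-164769928 holds 1 CHR, 5 CCAAT boxes and 1 hypoxia response element core. Cdc20 lies at chr4:118432901-118437352 on the minus strand, and its stretch at chr4:118437344-118437543 holds 1 CHR and 2 CCAAT boxes. Kif11 lies at chr19:37376403-37421859 on the plus strand, and its stretch at chr19:37376182-37376381 holds 1 CHR, 1 CCAAT box and 2 hypoxia response element cores. Top2a lies at chr11:98992943-99024189 on the minus strand, and its stretch at chr11:99024190-99024389 holds 4 CHR matches and 5 CCAAT boxes.
Ube2c: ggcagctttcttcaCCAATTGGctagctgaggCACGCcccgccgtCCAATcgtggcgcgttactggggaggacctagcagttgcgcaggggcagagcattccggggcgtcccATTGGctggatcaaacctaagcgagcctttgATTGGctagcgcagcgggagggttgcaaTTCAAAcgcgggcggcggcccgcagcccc
Cdc20: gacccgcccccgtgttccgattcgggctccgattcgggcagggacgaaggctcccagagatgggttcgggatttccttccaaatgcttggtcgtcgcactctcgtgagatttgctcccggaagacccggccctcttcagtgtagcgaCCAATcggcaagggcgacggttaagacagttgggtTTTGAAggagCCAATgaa
Kif11: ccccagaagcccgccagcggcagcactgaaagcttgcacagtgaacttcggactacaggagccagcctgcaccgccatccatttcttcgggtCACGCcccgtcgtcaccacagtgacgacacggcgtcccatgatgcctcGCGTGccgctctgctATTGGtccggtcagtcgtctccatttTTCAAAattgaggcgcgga
Top2a: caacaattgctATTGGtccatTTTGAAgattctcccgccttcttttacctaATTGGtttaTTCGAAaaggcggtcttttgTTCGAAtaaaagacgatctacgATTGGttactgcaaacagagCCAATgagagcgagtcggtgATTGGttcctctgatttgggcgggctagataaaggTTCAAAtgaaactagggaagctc

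Over each whole promoter, 250 bases before to 50 after the start, the 2 groups differed mainly in the CHR and the E2F core. The promoter table matched 43 of the 54 members, 20 S-phase and 23 mitotic, and a member with 2 promoters counted when either held the letters. A CHR stood in 18 of 23 mitotic members (78.3%, Wilson 95% interval 58.1% to 90.3%) and 4 of 20 S-phase members (interval 8.07% to 41.6%), against 19.2% of all 32851 promoters. An E2F core stood in 9 of 20 S-phase members (interval 25.8% to 65.8%) and 3 of 23 mitotic members (13.0%, 4.54% to 32.1%), against 6.7% of all promoters. CCAAT boxes were in 14 of 20 S-phase and 19 of 23 mitotic members, or 70.0% and 82.6%, against 37.4% of all. The short hypoxia response element core was in 12 of 20 and 18 of 23, or 60.0% and 78.3%, but also in 43.8% of all promoters. Such short letters occur in many promoters, and a match is a description of the sequence, not a site in use. Among mitotic members with a promoter, 5 of 6 that were lower in Ad-hHIF2 libraries below held a CHR. So did 13 of 17 that did not pass the test. Among S-phase members with a promoter, 3 of 7 that were lower held an E2F core. It stood in 6 of 11 that did not pass and in 0 of 2 that were higher.

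**Figure D1:**
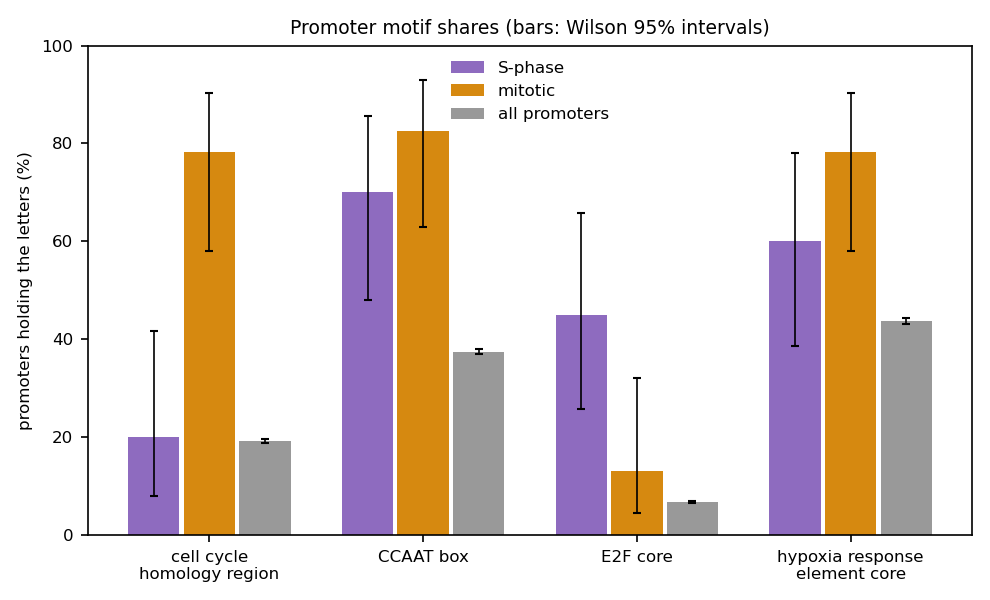
Share of promoters (%, y axis) that hold each element (x axis) among S-phase members, mitotic members and all promoters of the RefSeq table, with Wilson 95% intervals as error bars. The CHR was in 18 of 23 mitotic and 4 of 20 S-phase members, and the E2F core in 3 of 23 and 9 of 20.

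The libraries held 21722618 to 51119041 expected counts, and some libraries stood apart. The TMM scaling factor was 1.31 in Ad-hHIF2 replicate 1 and 0.907 to 1.027 in the others, and mitochondrial genes took 2.27% of the counts in Ad-GFP replicate 4 and 3.98% to 5.49% in the others. Satellite-like transcripts (Gm10800 and Gm26870) took 15.96% of the counts in Ad-hHIF1 replicate 3 and 0.433% to 4.28% in the others. Olfactory and vomeronasal receptors, 1434 genes taken here as a measure of background signal, summed to 66.5, 111.7 and 127.5 CPM (counts scaled to library size) in Ad-GFP libraries, 29.8, 40.1 and 57.9 CPM in Ad-hHIF2 libraries and 144.6, 396.4 and 51.4 CPM in Ad-hHIF1 libraries. Whether any of them is expressed in these organoids was not tested. This sum was lower in every Ad-hHIF2 than in every Ad-GFP library. The mouse gene Epas1, which encodes HIF2, had 1.64, 1.47 and 2.20 CPM in Ad-GFP libraries and 757, 604 and 654 CPM in Ad-hHIF2 libraries, a log2 fold change of 8.60. Hif1a had 197, 210 and 251 CPM in Ad-GFP libraries and 308, 319 and 299 CPM in Ad-hHIF1 libraries, which differed by 0.49 on the log2 scale and did not pass the edgeR test (adjusted p = 0.486). Reads of a human transgene reach the mouse gene only as far as they map to it. The study reports HIF overexpression by western blot and qRT-PCR, which are not part of these data. Epithelial markers (11 genes) summed to 3246 to 3563 CPM in Ad-GFP and 3451 to 3776 CPM in Ad-hHIF2 libraries. In Ad-hHIF1 libraries they summed to 3339 to 3756 CPM. Among them, Cdh1 was at 204 to 352 CPM in all libraries, but Epcam was at 1.42 to 3.80 CPM. Cdx1 was at 0 in every library. Summed stem cell markers (8 genes) ranged from 89.0 to 101.2 CPM in Ad-GFP, 104.1 to 112.3 CPM in Ad-hHIF2 and 88.1 to 91.2 CPM in Ad-hHIF1 libraries, and 1 of them, Olfm4, was at 0 in every Ad-GFP and Ad-hHIF2 library. Summed enterocyte markers (8 genes) were at 1.30 to 3.06 CPM in Ad-GFP, 4.84 to 5.46 CPM in Ad-hHIF2 and 2.58 to 3.24 CPM in Ad-hHIF1 libraries, and secretory markers (8 genes) at 6.20 to 10.3, 3.24 to 3.85 and 4.83 to 6.96 CPM. In the stem cell, enterocyte and secretory sums the Ad-hHIF2 libraries did not overlap those of Ad-GFP, but single markers went different ways. Of 5 stem cell markers tested 1 rose and 1 fell (log2 fold changes from -1.63 to 1.84), of 4 enterocyte markers 1 rose (-1.67 to 7.47) and of 2 secretory markers 1 fell, at -1.77, with the other at 0.19. Sis was at 0 in every Ad-GFP library, Fabp1 in every Ad-hHIF2 and Ad-hHIF1 library, Lyz1 and Tff3 in every Ad-GFP and Ad-hHIF2 library and Defa24 in all 9. Fibroblast markers (8 genes) summed to 12.1 to 18.4, 9.92 to 12.8 and 9.97 to 19.6 CPM, leukocyte markers (8 genes) to 11.4 to 16.0, 14.5 to 19.4 and 8.87 to 11.3 CPM and endothelium markers (6 genes) to 1.65 to 3.17, 1.14 to 1.78 and 2.32 to 2.89 CPM in the same order of groups, with Ad-GFP and Ad-hHIF2 overlapping in each. The part of these cell types in the results below was not tested.

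All members were detected, at levels that differed widely between genes. Per transcript length, in FPKM (fragments scaled to transcript length and library size), the S-phase genes had a median of 2.98 in Ad-GFP libraries, from 0.15 for Cdc6, which loads the helicase, to 40.4 for Pcna, the sliding clamp. The mitotic genes had a median of 1.32 FPKM, from 0.13 for Cdc25c, the phosphatase that activates CDK1, to 8.52 for Ube2c, the ubiquitin-conjugating enzyme of the anaphase-promoting complex. Cdc25c rested on 3 to 31 expected counts a library and was removed by the filter on low counts in the comparison of Ad-hHIF2 with Ad-GFP, so 53 of the 54 members were tested there.

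In Ad-hHIF2 against Ad-GFP libraries, 15 of the 53 members tested fell and 2 rose. A member counts as having fallen or risen when its p from edgeR, adjusted over all genes, was below 0.05. Of 14987 genes tested, 13.6% fell and 15.9% rose by this rule, so changed genes were common throughout the transcriptome. Among the S-phase genes 7 of 25 fell (Tyms, Mcm10, Tk1, Pola1, Pcna, Mcm6 and Mcm2) and 2 rose (Rrm1 and Rrm2). Among the mitotic genes 8 of 28 fell (Ube2c, Ccna2, Kif11, Cdc20, Cenpe, Tpx2, Prc1 and Top2a) and none rose. With the 2-fold minimum that the study used, 2 S-phase genes (Tyms and Mcm10) and 2 mitotic genes (Ube2c and Ccna2) fell, against 3.83% of all genes, and no member rose, against 2.9%. Unadjusted p-values were below 0.05 for 41.2% of all genes. By that looser rule 11 S-phase and 14 mitotic genes were lower, where 19.9% of all genes were, and 2 S-phase genes and 1 mitotic gene (Kif23) were higher, where 21.3% were.

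The log2 fold changes of the S-phase genes had a median of -0.31 (quartiles -0.39 and 0.03) and those of the mitotic genes a median of -0.38 (quartiles -0.60 and -0.29), beside -0.01 over all genes tested. The log2 fold change was negative for 18 of 25 S-phase and 26 of 28 mitotic genes. On log2(TPM + 1), a scale on which all genes shifted by 0.12, the S-phase median turned to 0.05 and the mitotic median was near 0, and no member passed the test. Relative to the median of all genes, the list medians stayed negative in every alternative computed, from -0.32 to -0.08 for S-phase and from -0.48 to -0.13 for mitotic genes. The libraries of the 2 groups did not overlap for 11 S-phase and 15 mitotic genes that were lower and for 2 S-phase genes and 1 mitotic gene that were higher, against 22.4% and 23.4% of all genes.

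**Figure D2:**
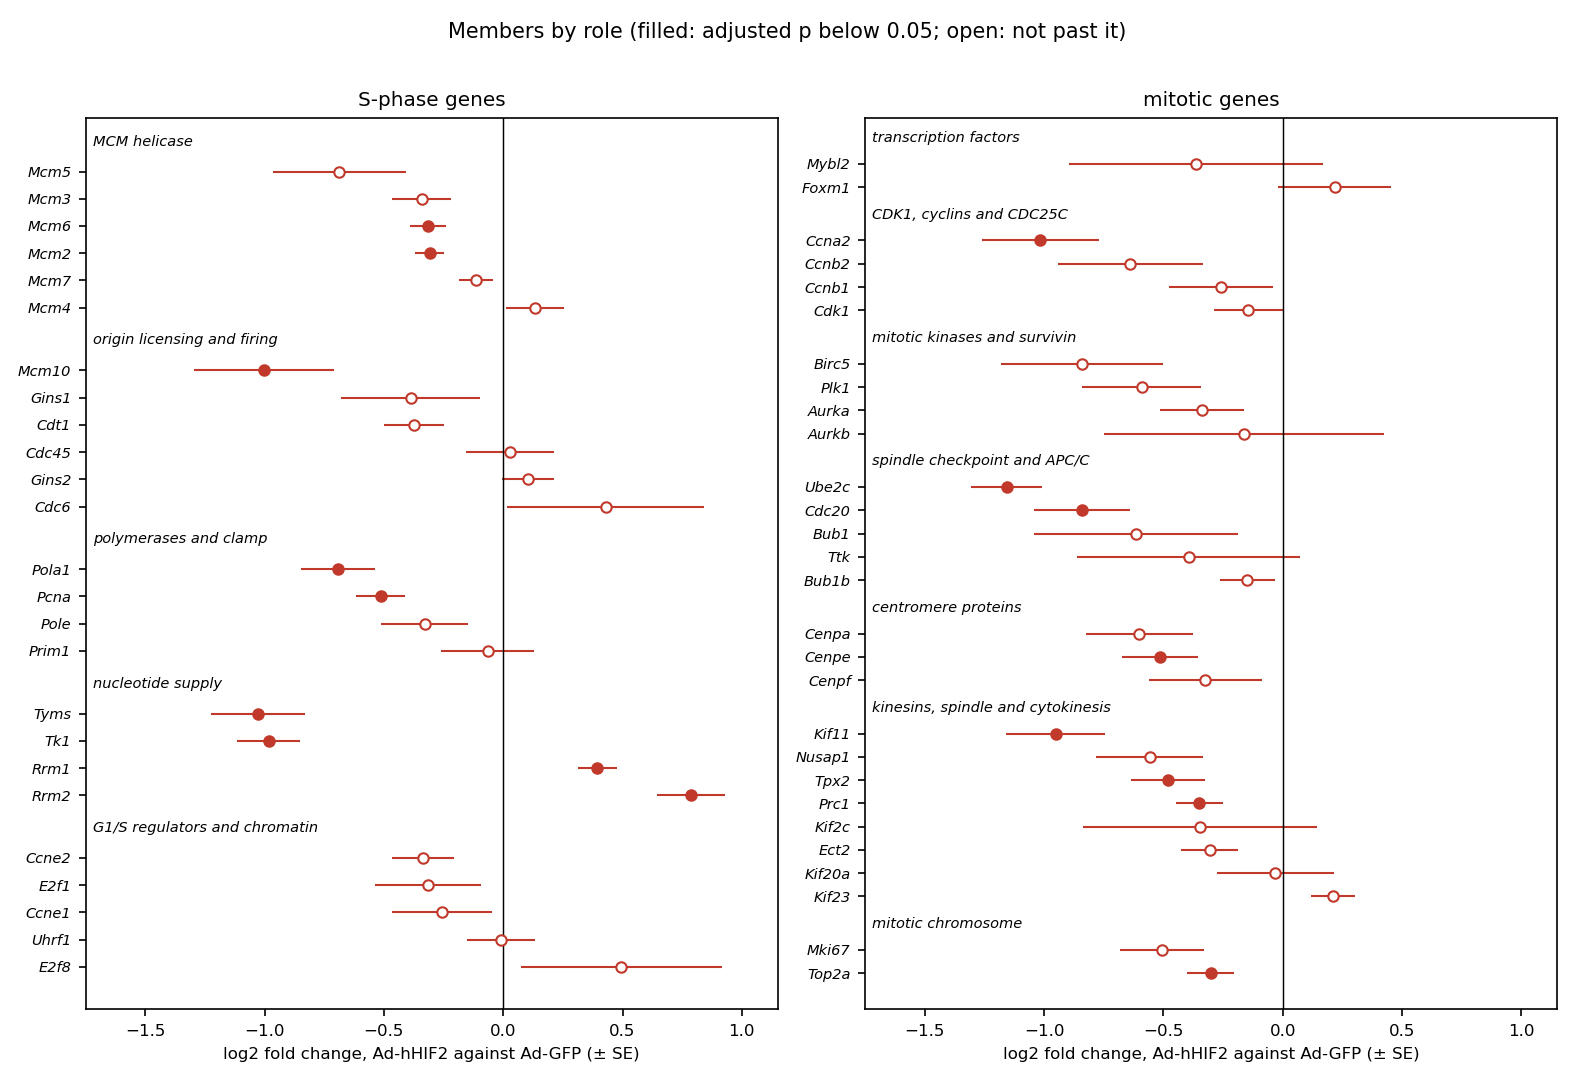
Log2 fold change of each tested member in Ad-hHIF2 against Ad-GFP libraries (x axis; bars, SE; 3 libraries a group), S-phase genes left and mitotic genes right, grouped by role. Filled points passed an adjusted p of 0.05 (edgeR): 7 S-phase and 8 mitotic genes lie to the left of 0, and Rrm1 and Rrm2 to the right.

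Deoxynucleotide supply was the role in which members moved in both directions. Rrm1 and Rrm2 encode the large and small subunits of ribonucleotide reductase, which makes deoxynucleotides from ribonucleotides. Rrm2 had 8.55, 9.36 and 6.19 CPM in Ad-GFP libraries, 14.8, 13.7 and 13.3 CPM in Ad-hHIF2 libraries and 6.57, 8.14 and 8.87 CPM in Ad-hHIF1 libraries. All 3 Ad-hHIF2 libraries lay above the other 6, and the log2 fold change against Ad-GFP was 0.79 (SE 0.143, adjusted p = 0.00418, edgeR). Rrm1 had 16.1, 15.1 and 15.7 CPM in Ad-GFP, 20.4, 21.6 and 19.3 CPM in Ad-hHIF2 and 17, 21.4 and 18 CPM in Ad-hHIF1 libraries. Ad-hHIF2 libraries were above every Ad-GFP library but overlapped those of Ad-hHIF1, with a log2 fold change of 0.39 against Ad-GFP (SE 0.0808, adjusted p = 0.00736, edgeR).

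Thymidine kinase 1 (Tk1), which salvages thymidine, had 8.63, 8.53 and 10.49 CPM in Ad-GFP, 4.91, 4.29 and 4.69 CPM in Ad-hHIF2 and 7.01, 6.43 and 8.23 CPM in Ad-hHIF1 libraries. The 3 groups did not overlap, with Ad-hHIF2 lowest and Ad-GFP highest, and Tk1 fell by 0.98 on the log2 scale in Ad-hHIF2 against Ad-GFP (SE 0.133, adjusted p = 0.000941, edgeR). Tk1 overlaps Afmid on the opposite strand, and the strand setting of the counting is not given in the sources used here. Thymidylate synthase (Tyms), which makes thymidylate de novo, had 51.1, 69.9 and 71.3 CPM in Ad-GFP and 22.8, 32.5 and 38.7 CPM in Ad-hHIF2 libraries, with a log2 fold change of -1.03 (SE 0.197, adjusted p = 0.0053, edgeR). In Ad-hHIF1 libraries Tyms had 90.6, 196 and 41.1 CPM, the widest spread of any group for this gene.

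Across the 9 libraries Tyms came in the same order as the summed receptor background, except for 1 pair of neighbours (Ad-hHIF2 replicate 4 and Ad-hHIF1 replicate 4). The receptor sum was fitted as a covariate over all 9 libraries, an alternative added after the data were seen, and is set here beside the fit of the same 9 libraries without it. In the 9-library fit without the covariate Tyms had a log2 fold change of -1.03 and already did not pass the test (adjusted p = 0.117, edgeR), and with the covariate it was -0.11 (adjusted p = 0.465). Mcm10 went from -1.01 (adjusted p = 0.0478, edgeR) to -0.55 (adjusted p = 0.227). Rrm1, Rrm2 and Tk1 passed in both, with covariate values of 0.46, 0.69 and -1.10. Mcm2, Mcm6, Pcna and Pola1 also passed in both, with covariate values of -0.378, -0.423, -0.443 and -0.605. So did the mitotic genes Ube2c, Cdc20, Kif11 and Ccna2, with covariate values of -1.28, -0.912, -0.998 and -0.939. The median of the S-phase genes was -0.32 without and -0.13 with the covariate, and that of the mitotic genes -0.36 and -0.39. Of the mitotic genes Top2a, Prc1 and Cenpe passed without the covariate (adjusted p = 0.0318, 0.0469 and 0.0442, edgeR) and not with it (adjusted p = 0.073, 0.189 and 0.12), at log2 fold changes of -0.31, -0.35 and -0.52 against -0.32, -0.27 and -0.48. Tpx2 passed in neither (adjusted p = 0.0547 and 0.197, edgeR). Nusap1 and Ect2 passed with the covariate (adjusted p = 0.0251 and 0.0399, edgeR) and not without it (adjusted p = 0.109 and 0.127). Tyms also had expected counts that were not whole in all 9 libraries, as RSEM gives for genes that share reads with another gene. Pola1, E2f1 and Ccna2 were among the other members with such counts in all 9. The part of shared reads in their changes was not tested.

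The MCM helicase had 6 members, of which Mcm2 and Mcm6 fell and 4 did not pass the test. Mcm2 had 33.8, 33.0 and 33.1 CPM in Ad-GFP and 27.3, 26.8 and 26.3 CPM in Ad-hHIF2 libraries, with a log2 fold change of -0.31 (SE 0.0622, adjusted p = 0.00679, edgeR). Mcm6 had 37.0, 34.8 and 32.5 CPM against 26.9, 28.5 and 28.2 CPM, with a log2 fold change of -0.32 (SE 0.0739, adjusted p = 0.0131, edgeR). Both changes are small beside those of Tk1 and Rrm2, and on log2(TPM + 1) they were 0.03 and 0.12, both below the median of all genes on that scale (0.124). Mcm5 and Mcm3 had log2 fold changes of -0.69 and -0.34 (adjusted p = 0.0968 and 0.0693, edgeR), Mcm7 of -0.12 and Mcm4 of 0.13. The 6 subunits form 1 ring, and their log2 fold changes ran from -0.69 to 0.13.

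Of the 6 genes of origin licensing and firing, 1 fell. Mcm10, which helps to activate the loaded helicase, had 2.24, 2.10 and 3.20 CPM in Ad-GFP and 1.05, 1.14 and 1.55 CPM in Ad-hHIF2 libraries, a log2 fold change of -1.003 (SE 0.292, adjusted p = 0.0319, edgeR). It rested on 46 to 89 expected counts a library, and the call was lost when any 1 library was left out except Ad-hHIF2 replicate 4. Cdt1, the loading factor that is destroyed once S phase begins, had a log2 fold change of -0.38 (edgeR, adjusted p = 0.0518). Cdc45, a part of the active helicase, had 3.03, 3.02 and 3.25 CPM in Ad-GFP, 3.02, 3.49 and 2.91 CPM in Ad-hHIF2 and 2.5, 4.29 and 3.14 CPM in Ad-hHIF1 libraries. All 3 groups overlapped for Cdc45, with a log2 fold change of 0.03 (SE 0.183) in Ad-hHIF2. Gins1, Gins2 and Cdc6 had log2 fold changes of -0.39, 0.10 and 0.43 and did not pass the test.

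Of the 4 genes of polymerases and clamp, 2 fell. Pcna had 51.9, 56.4 and 62.4 CPM in Ad-GFP, 35.1, 42.5 and 41.4 CPM in Ad-hHIF2 and 54.1, 54.9 and 52.5 CPM in Ad-hHIF1 libraries. Every Ad-hHIF2 library was below the other 6, with a log2 fold change of -0.51 against Ad-GFP (SE 0.102, adjusted p = 0.00629, edgeR). Pola1, the catalytic subunit of the polymerase that starts new strands, had 6.12, 6.92 and 8.59 CPM in Ad-GFP and 4.39, 4.39 and 4.49 CPM in Ad-hHIF2 libraries, with a log2 fold change of -0.69 (SE 0.155, adjusted p = 0.0108, edgeR). Its partner in that complex, the primase subunit Prim1, had a log2 fold change of -0.07, and Pole, the leading-strand polymerase, of -0.33, and neither passed the test.

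None of the 5 regulators of S-phase entry and chromatin passed the test. E2f1, the transcription factor that activates many S-phase genes, had 4.75, 6.37 and 7.44 CPM in Ad-GFP, 4.09, 4.43 and 6.33 CPM in Ad-hHIF2 and 9.71, 23.9 and 4.88 CPM in Ad-hHIF1 libraries. Ad-GFP and Ad-hHIF2 libraries overlapped, with a log2 fold change of -0.31 (SE 0.223, adjusted p = 0.325, edgeR), which turned to 0.63 (adjusted p = 0.00974) with the receptor background as a covariate in the 9-library fit (-0.32 in that fit without it). Uhrf1, which carries DNA methylation over to new strands, had 9.26, 6.81 and 8.54 CPM in Ad-GFP and 7.47, 8.21 and 8.69 CPM in Ad-hHIF2 libraries, a log2 fold change of -0.01 (SE 0.142). The cyclins Ccne1 and Ccne2, partners of CDK2 at the start of S phase, had log2 fold changes of -0.26 and -0.34, and the atypical repressor E2f8 of 0.50 on 10 to 51 expected counts a library.

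Of the 5 genes of the spindle checkpoint and anaphase-promoting complex, Ube2c and Cdc20 fell. Ube2c had 7.45, 6.79 and 8.64 CPM in Ad-GFP, 3.68, 3.33 and 3.17 CPM in Ad-hHIF2 and 6.22, 5.12 and 6.44 CPM in Ad-hHIF1 libraries. The groups did not overlap, with Ad-hHIF2 lowest, and the log2 fold change against Ad-GFP was -1.16 (SE 0.149, adjusted p = 0.000725, edgeR). Cdc20, the activator of the complex at anaphase, had 3.80, 3.24 and 3.55 CPM in Ad-GFP, 2.17, 1.92 and 1.78 CPM in Ad-hHIF2 and 3.49, 4.03 and 4.14 CPM in Ad-hHIF1 libraries. The Ad-hHIF2 libraries were below the other 6, with a log2 fold change of -0.84 (SE 0.200, adjusted p = 0.014, edgeR), on 55 to 162 expected counts a library. Ube2c overlaps Tnnc2 and Cdc20 overlaps Elovl1 on the opposite strand. The checkpoint kinases Bub1 and Ttk had log2 fold changes of -0.62 and -0.39 and the checkpoint protein Bub1b of -0.15, and none of these passed the test with all libraries. Without Ad-GFP replicate 4, the library with the lowest Bub1 level, the log2 fold change of Bub1 was -0.99 and did pass (adjusted p = 0.00825, edgeR).

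Among CDK1, its activators and cyclins, cyclin A2 fell. Ccna2 had 3.55, 4.49 and 6.39 CPM in Ad-GFP, 2.49, 2.08 and 2.49 CPM in Ad-hHIF2 and 3.52, 5.03 and 5.06 CPM in Ad-hHIF1 libraries. Each Ad-hHIF2 library was below the other 6, with a log2 fold change of -1.02 (SE 0.244, adjusted p = 0.0147, edgeR). Ccna2 overlaps Exosc9 on the opposite strand and had fractional expected counts in all 9 libraries. Cdk1 itself had 9.88, 8.72 and 7.39 CPM in Ad-GFP, 6.81, 8.12 and 8.66 CPM in Ad-hHIF2 and 7.99, 6.21 and 10.2 CPM in Ad-hHIF1 libraries. All groups overlapped for Cdk1, with a log2 fold change of -0.14 (SE 0.145) in Ad-hHIF2. Its mitotic cyclins Ccnb1 and Ccnb2 had log2 fold changes of -0.26 and -0.64 (adjusted p = 0.412 and 0.15, edgeR).

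Of the 8 genes of kinesins, spindle and cytokinesis, 3 fell. Kif11, the kinesin that pushes the spindle poles apart, had 4.78, 4.99 and 3.90 CPM in Ad-GFP, 2.33, 2.78 and 1.91 CPM in Ad-hHIF2 and 5.17, 4.20 and 4.14 CPM in Ad-hHIF1 libraries. The Ad-hHIF2 libraries lay below all others, with a log2 fold change of -0.95 (SE 0.207, adjusted p = 0.00962, edgeR). Tpx2, which activates Aurora A on the spindle, and Prc1, which bundles the microtubules of the midzone, had log2 fold changes of -0.48 and -0.35 (adjusted p = 0.0461 and 0.0295, edgeR). Kif20a, a kinesin of cytokinesis, had 2.21, 2.1 and 2.0 CPM in Ad-GFP, 1.90, 2.53 and 1.71 CPM in Ad-hHIF2 and 2.41, 3.63 and 2.58 CPM in Ad-hHIF1 libraries. Its Ad-hHIF2 libraries lay on both sides of those of Ad-GFP, with a log2 fold change of -0.03 (SE 0.245). Kif23, which acts in the same step, was at 11.6, 11.5 and 11.9 CPM in Ad-GFP and 14.3, 13.5 and 12.5 CPM in Ad-hHIF2 libraries, without overlap, but did not pass the test (log2 fold change 0.21, adjusted p = 0.117, edgeR). Nusap1, Kif2c and Ect2 had log2 fold changes of -0.56, -0.35 and -0.31 and did not pass it.

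Of the remaining mitotic genes, 2 of 11 fell. Cenpe, a kinesin of the kinetochore, had a log2 fold change of -0.51 (SE 0.158, adjusted p = 0.0387, edgeR), and Top2a, the topoisomerase that untangles sister chromatids, of -0.30 (SE 0.0985, adjusted p = 0.0488, edgeR). Top2a was at 20.3, 21.1 and 22.5 CPM in Ad-GFP and 17.5, 19.0 and 15.2 CPM in Ad-hHIF2 libraries, and its change was 0.04 on log2(TPM + 1), below the median of all genes on that scale (0.124). The proliferation marker Mki67 had 6.09, 8.53 and 8.89 CPM in Ad-GFP, 5.76, 4.69 and 6.04 CPM in Ad-hHIF2 and 5.20, 7.05 and 5.80 CPM in Ad-hHIF1 libraries. Its Ad-hHIF2 libraries were all below Ad-GFP, but the log2 fold change of -0.51 did not pass the test (SE 0.176, adjusted p = 0.0601, edgeR). The kinases Plk1, Aurka and Aurkb had log2 fold changes of -0.59, -0.34 and -0.16, survivin (Birc5) of -0.84, and the centromere proteins Cenpa and Cenpf of -0.60 and -0.33. The transcription factors of the mitotic program, Mybl2 and Foxm1, had log2 fold changes of -0.36 and 0.22 with SE of 0.532 and 0.236, and did not pass it either.

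The calls differed in how much they rested on single libraries. Of the 17 members that fell or rose, 9 passed the test whichever of the 6 libraries was left out, namely Rrm1, Rrm2, Tk1, Pcna, Mcm2, Pola1, Tyms, Ube2c and Kif11. Mcm6, Mcm10, Cdc20, Ccna2, Cenpe, Tpx2, Prc1 and Top2a lost the call in at least 1 of these fits while keeping their sign. Cdc20 lost it only without Ad-GFP replicate 1, Ccna2 only without Ad-hHIF2 replicate 3 and Mcm6 without replicate 1 of either group. Cenpe and Prc1 kept it only without Ad-GFP replicate 4 and Tpx2 only without Ad-GFP replicate 1. Top2a kept it only without Ad-hHIF2 replicate 3 and Mcm10 only without Ad-hHIF2 replicate 4. The number of mitotic genes that fell dropped to 5 without Ad-GFP replicate 1 and to 4 without Ad-GFP replicate 3 or any 1 Ad-hHIF2 library. Calls were also gained, each in 1 such fit (edgeR): Bub1 and Cenpa without Ad-GFP replicate 4 (adjusted p = 0.00825 and 0.00422), Mki67 without Ad-GFP replicate 1 (adjusted p = 0.02) and Cdt1 without Ad-hHIF2 replicate 4 (adjusted p = 0.0154). Over all 19 alternatives computed for each gene, Cdt1 passed in 7, Cenpa in 4, Mki67 in 3 and Bub1 in 2.

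**Figure D3:**
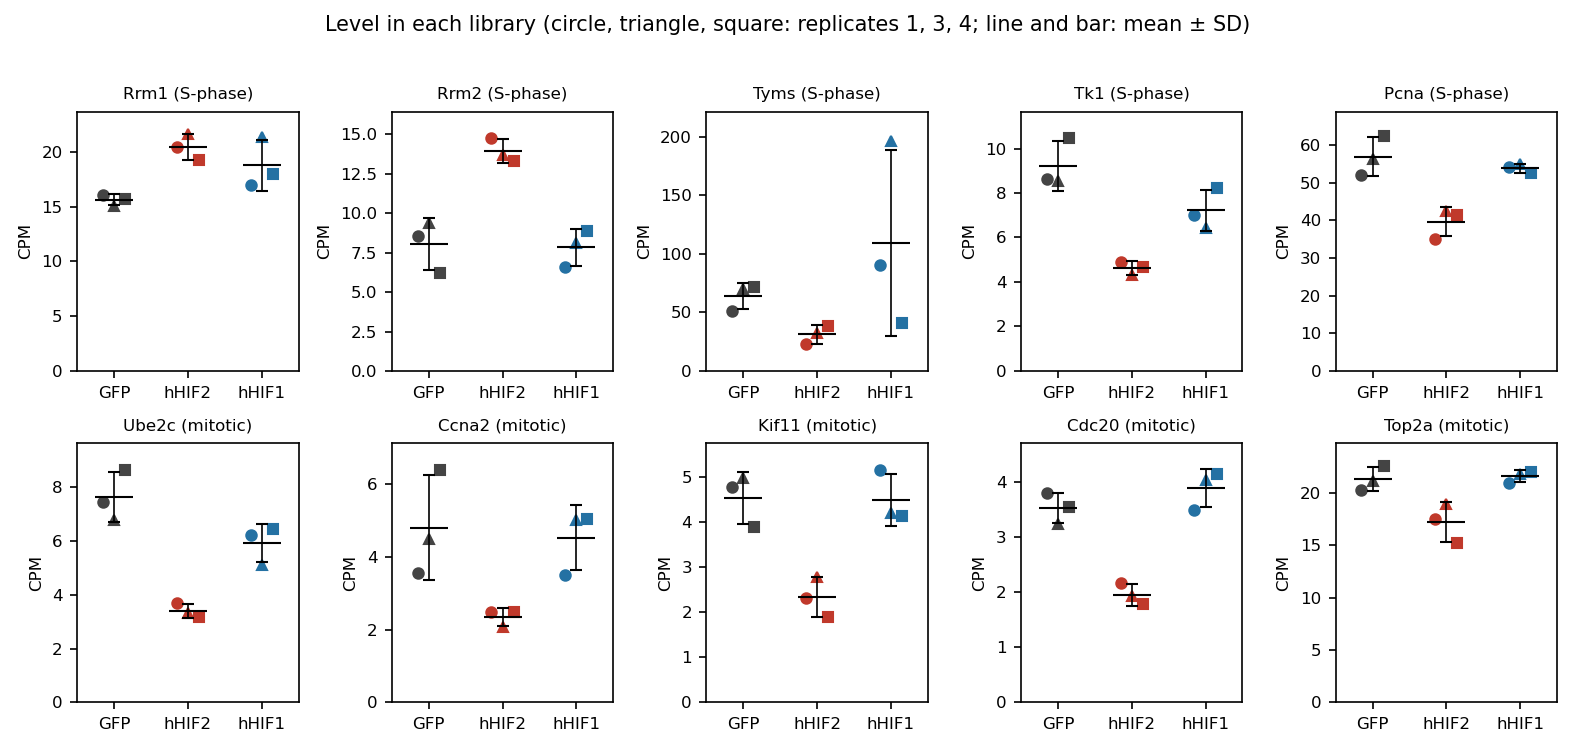
CPM (y axis, from 0) in each library of the 3 groups (x axis) for 5 S-phase and 5 mitotic genes; symbols mark replicates 1, 3 and 4, and lines and bars the mean ± SD of 3 libraries. Rrm2 lay higher and Pcna, Ccna2, Kif11 and Cdc20 lower in Ad-hHIF2 than in all other libraries, and Tyms spread from 41.1 to 196 CPM within Ad-hHIF1.

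The S-phase and mitotic genes were also compared as groups in each library, by the mean of log2(CPM + 1) over the genes of each list. The S-phase mean was 3.22, 3.26 and 3.28 in Ad-GFP, 2.99, 3.04 and 3.12 in Ad-hHIF2 and 3.29, 3.44 and 3.23 in Ad-hHIF1 libraries. The mitotic mean was 2.38, 2.41 and 2.30 in Ad-GFP, 2.08, 2.10 and 2.02 in Ad-hHIF2 and 2.38, 2.40 and 2.41 in Ad-hHIF1 libraries. On this scale every Ad-hHIF2 library was below the other 6 for both lists, while Ad-GFP and Ad-hHIF1 libraries overlapped. On log2(TPM + 1) this separation was not seen: Ad-hHIF2 replicate 1 was then the highest of all 9 libraries, at 0.97 for S-phase and 0.50 for mitotic genes, and Ad-hHIF2 replicates 3 and 4 were at 0.65 and 0.71 and at 0.32 and 0.33. That scale carries no TMM factor, and on it the median of all genes was itself 0.12 higher in Ad-hHIF2 than in Ad-GFP libraries. Relative to that median the list medians were -0.08 for S-phase and -0.13 for mitotic genes. The distance between the 2 lists was 0.89 ± 0.08 in Ad-GFP, 0.99 ± 0.10 in Ad-hHIF2 and 0.92 ± 0.11 in Ad-hHIF1 libraries (mean ± SD, n = 3), and these ranges overlapped. A larger shift of one list than of the other was thus not visible against the spread between libraries when replicate numbers were ignored. By number, the distance was 0.83, 0.84 and 0.98 in Ad-GFP and 0.92, 0.94 and 1.10 in Ad-hHIF2 libraries, higher in Ad-hHIF2 each time. Relative to all genes, the S-phase and mitotic medians were -0.303 and -0.367 in the main fit. They were -0.112 and -0.375 with the receptor covariate and -0.177 and -0.365 without Ad-GFP replicate 4. A difference between the lists was not tested. In direction, 2 S-phase genes rose and no mitotic gene did. The SD of the log2 fold changes over genes was 0.47 for S-phase and 0.33 for mitotic genes.

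**Figure D4:**
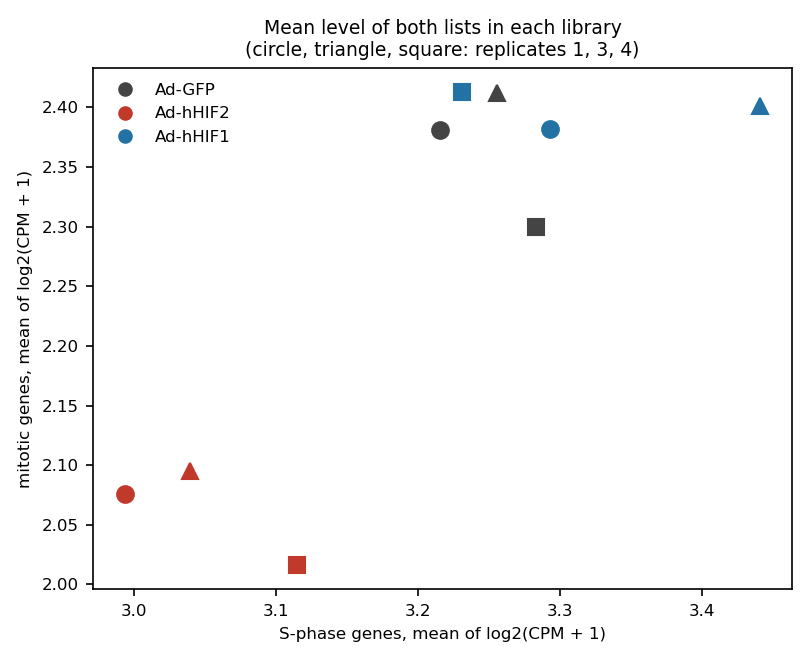
Mean of log2(CPM + 1) over the S-phase genes (x axis) and over the mitotic genes (y axis) in each of the 9 libraries, coloured by group, with symbols for replicates 1, 3 and 4. The Ad-hHIF2 libraries sit at 2.99 to 3.12 and 2.02 to 2.10, below the other 6 on both axes of this TMM-scaled plot but not on log2(TPM + 1), where the median of all genes shifted by 0.12 and the list medians were -0.08 and -0.13 relative to it, and Ad-hHIF1 replicate 3 is farthest to the right at 3.44.

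In Ad-hHIF1 against Ad-GFP libraries no member passed the test, and neither did any other of the 15233 genes tested (0% by edgeR). With EBSeq and a 2-fold minimum, the study did report genes that differed between these groups. Unadjusted, 1308 genes (8.59%) had a p below 0.05, 4.06% of all genes on the higher and 4.53% on the lower side. Rrm1 was the one member among them, on the higher side. The libraries did not overlap for 1 S-phase gene (Rrm1) and 2 mitotic genes (Kif20a and Ccnb1) that were higher, against 8.38% of all genes, and for Tk1 and Ube2c that were lower, against 9.06%. DESeq2 called 68 genes higher and 76 lower and limma-voom 4 and 1, without a member among them, and edgeR without a filter on low counts called 2 S-phase genes higher. The median log2 fold change was 0.09 for S-phase and 0.01 for mitotic genes, and the S-phase median was 0.04 without Ad-hHIF1 replicate 3 and 0.06 without Ad-GFP replicate 4. These values share the Ad-GFP libraries with the comparison above. The script was tested on simulated counts in which only 100 genes were changed at each fold. There edgeR recovered 2% of 1.5-fold and 37% of 2-fold changes for Ad-hHIF1 against Ad-GFP, with 9.3% of its calls false. For Ad-hHIF2 against Ad-GFP it recovered 33% and 63%, with 7.69% of its calls false. In the real Ad-hHIF2 comparison 29.5% of all genes were called, far more than were changed in the simulation, so its rates do not carry over.

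The S-phase genes with the smallest p in this comparison were Rrm1, Tk1 and E2f1. Rrm1 was above Ad-GFP in all 3 Ad-hHIF1 libraries, with a log2 fold change of 0.26 (SE 0.107, adjusted p = 0.575, edgeR). Tk1 was below Ad-GFP in all 3, at -0.34 (SE 0.153, adjusted p = 0.588, edgeR). E2f1 had a log2 fold change of 1.04 with an SE of 0.506 (adjusted p = 0.602, edgeR), which was 0.25 without Ad-hHIF1 replicate 3, the library at 23.9 CPM. In the same way the log2 fold change of Tyms was 0.77 (SE 0.470) with that library and 0.04 without it. Ad-hHIF1 replicate 3 was the library with the most satellite-like counts and receptor background, and with the receptor sum as a covariate in the 9-library fit the log2 fold changes were 0.36 for E2f1 and 0.10 for Tyms (adjusted p = 0.33 and 0.688, edgeR), against 1.04 and 0.77 in that fit without it. The mitotic genes with the smallest p were Ube2c, Mki67 and Kif20a, with log2 fold changes of -0.36, -0.38 and 0.44 (adjusted p = 0.591, 0.617 and 0.652, edgeR). Rrm2, which rose under HIF2, had a log2 fold change of -0.04 (SE 0.191) in Ad-hHIF1.

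The direct test of Ad-hHIF2 against Ad-hHIF1 libraries called 9 of 25 S-phase genes and 8 of 29 mitotic genes lower, and 1 S-phase gene (Rrm2) higher. Of 15556 genes tested, 12% were called lower and 13.7% higher. With the 2-fold minimum 2 S-phase genes and no mitotic gene were lower and no member was higher, against 3.7% and 2.42% of all genes. Libraries did not overlap for 12 S-phase and 16 mitotic genes that were lower and for 2 S-phase genes that were higher, against 19.1% and 22.7% of all genes. The S-phase genes lower in Ad-hHIF2 were Tyms, Mcm10, Mcm5, Tk1, Pola1, Mcm3, Pcna, Mcm6 and Mcm2, and the mitotic ones Cdc20, Ccna2, Kif11, Ube2c, Nusap1, Cenpa, Tpx2 and Top2a. The medians were -0.38 and -0.45, beside -0.01 over all genes. By total counts they were -0.195 and -0.261 beside 0.172 over all genes, and fewer members were called. On log2(TPM + 1) they were -0.016 and -0.049 beside 0.063, and no member passed the test. Rrm2 had a log2 fold change of 0.83 (SE 0.159, adjusted p = 0.00373, edgeR), but with the receptor background as a covariate it was 0.70 and no longer passed the test (adjusted p = 0.052). Rrm1 did not differ beyond the spread, at 0.13 (SE 0.0952, adjusted p = 0.374, edgeR).

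Among mitotic genes the clearest differences between the HIFs were those of Cdc20 (log2 fold change -0.99, adjusted p = 0.00331, edgeR), Ube2c (-0.81, adjusted p = 0.00359) and Kif11 (-0.94, adjusted p = 0.00694). Among S-phase genes Mcm2 had the smallest p, with a log2 fold change of -0.38 (SE 0.0637, adjusted p = 0.00184, edgeR), followed by Rrm2, Mcm6 at -0.41 (adjusted p = 0.00446) and Pcna at -0.44 (adjusted p = 0.00566). Tyms had the largest change, -1.80 (SE 0.450, adjusted p = 0.0149, edgeR), which was -1.08 without Ad-hHIF1 replicate 3 and -0.21, no longer past the test, with the background as a covariate. With that covariate 3 S-phase genes (Mcm2, Tk1 and Mcm6) and 5 mitotic genes were lower. Of these 5, Ube2c, Cdc20, Kif11 and Nusap1 were also lower without it, and Ect2 passed with it (adjusted p = 0.0467, edgeR) but not in the fit of all libraries without it (adjusted p = 0.114). Ect2 also passed without Ad-hHIF1 replicate 3 (adjusted p = 0.029, edgeR). The number of S-phase genes called lower was 4 without Ad-hHIF2 replicate 1. The number of mitotic genes called lower was 3 without Ad-hHIF2 replicate 1 or Ad-hHIF1 replicate 4, 4 without Ad-hHIF2 replicate 3 and 5 without Ad-hHIF2 replicate 4, and it rose to 12 without Ad-GFP replicate 4, a fit in which 10 S-phase genes were lower.

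Other genes of the same pathways moved both ways in Ad-hHIF2 against Ad-GFP libraries. Of 46 other replication genes tested 9 fell and 5 rose, or 19.6% and 10.9%, against 13.6% and 15.9% of all genes, with a median log2 fold change of -0.13. Dut, the dUTPase that keeps uracil out of DNA and feeds the thymidylate pathway, had 29.6, 29.4 and 28.3 CPM in Ad-GFP and 10.8, 12.2 and 10.9 CPM in Ad-hHIF2 libraries. Its log2 fold change of -1.36 (SE 0.0811, adjusted p = 1.05e-05, edgeR) exceeded that of every member, and its Ad-hHIF1 libraries at 26.9, 27.0 and 28.9 CPM lay close to Ad-GFP. DNA ligase 1 (Lig1), which joins Okazaki fragments, rose from 5.57, 6.07 and 5.74 CPM to 9.96, 9.29 and 10.1 CPM, or by 0.76 on the log2 scale (edgeR, adjusted p = 0.00109). Pole2, the second subunit of the leading-strand polymerase, rose by 0.87 (adjusted p = 0.0223, edgeR), and Cdca7, a chromatin factor, fell by 0.72 on the log2 scale (adjusted p = 0.000629, edgeR).

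Of 70 other mitosis genes 12 fell and 4 rose, or 17.1% and 5.71%, against 13.6% and 15.9% of all genes, with a median log2 fold change of -0.35. The paralogs Cks1b and Cks2, small proteins that bind CDK1, went in opposite directions. Cks1b had 30.0, 32.4 and 28.1 CPM in Ad-GFP and 15.2, 15.1 and 15.0 CPM in Ad-hHIF2 libraries, with a log2 fold change of -0.996 (edgeR, adjusted p = 4.17e-05). Cks2 had 10.6, 12.2 and 12.2 CPM against 21.6, 21.8 and 22.2 CPM, with a log2 fold change of 0.92 (edgeR, adjusted p = 0.000141). The 2 CPM values thus moved from Cks1b above Cks2 in every Ad-GFP library to Cks2 above Cks1b in every Ad-hHIF2 library. The kinesins Kif4, of the midzone, and Kif18a, which damps chromosome movements, had log2 fold changes of -0.91 and -0.89 (adjusted p = 0.028 and 0.000711, edgeR).

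Of 15 genes of the RB, E2F and DREAM complexes, which keep both programs silent outside their time, 2 rose and 2 fell, or 13.3% each way, close to the 15.9% and 13.6% of all genes. The pocket proteins Rbl2 (p130) and Rbl1 (p107), which hold E2F target genes in check, had log2 fold changes of 0.56 and 0.50 (adjusted p = 0.00665 and 0.0121, edgeR). Rbl2 had 12.2, 14.0 and 15.8 CPM in Ad-GFP and 20.2, 19.1 and 22.1 CPM in Ad-hHIF2 libraries, and Rbl1 had 6.33, 7.34 and 7.64 CPM against 10.6, 9.25 and 10.2 CPM. Neither gene's groups overlapped. E2f5 and Tfdp1, partners in repressive and activating E2F complexes, had log2 fold changes of -0.31 and -0.27 (adjusted p = 0.0433 and 0.0273, edgeR). In the direct test of Ad-hHIF2 against Ad-hHIF1 libraries, 1 of these 15 genes was higher and 2 were lower. These shares were 6.67% and 13.3%, against 13.7% and 12% of all genes. Rbl2 was at 0.35 and Tfdp1 at -0.26 (adjusted p = 0.0297 and 0.0211, edgeR), and Rbl1 was not called higher. Of the other lists, Cks2 was at 1.09, Cks1b at -0.93 and Dut at -1.29 in this test.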

How the data were processed

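RNA from 9 organoid cultures, 3 per group, was sequenced. The authors removed low-quality reads and estimated expected counts per gene with RSEM; the sources used here do not give its version, nor aligner, build, annotation or strand setting. The deposited expected counts are not normalized, and 85.7% of them are whole (within 0.005); 28 of the 54 members had a fractional count in some library. The deposited TPM and FPKM values are RSEM's length-scaled abundances; FPKM served to compare levels between genes and TPM as an alternative scale. The authors tested with EBSeq.

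Expected counts were rounded, filtered with filterByExpr, scaled by TMM and tested with edgeR 4.0.16 (quasi-likelihood; limma 3.58.1, R 4.3.3), each HIF against Ad-GFP on its 6 libraries and Ad-hHIF2 against Ad-hHIF1 on all 9. P-values were adjusted by Benjamini-Hochberg over all genes tested, with 0.05 as the threshold for a call. SE were derived from the F statistic. CPM use TMM factors over 9 libraries. The script was tested on simulated counts. Alternatives were the count filter, median-ratio or total-count scaling, DESeq2 1.42.0, limma-voom, 2 TPM scales tested with limma (log2 of TPM + 1 or TPM + 0.1), the samples in a fit, a replicate block and leaving out each library. A receptor background covariate (all 9 libraries in 1 fit) and a fit without Ad-GFP replicate 4 and Ad-hHIF1 replicate 3 were added after the data were seen.

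The members and lists were chosen with earlier results of these data known. Every member may be named. Values per library are given in each list for the 4 largest and 2 smallest log2 fold changes in Ad-hHIF2 against Ad-GFP. They are also given for the 3 smallest p in Ad-hHIF1 against Ad-GFP and for up to 4 genes of each other list. Of further members that passed in Ad-hHIF2 against Ad-GFP, they are given for all but Tpx2, Prc1 and Cenpe. Kif23 was singled out after its values were seen. Library totals were 21722618 to 51119041 expected counts. No 2 libraries were duplicates: for the closest pair, chi-square divided by its degrees of freedom was 26.3. An exact permutation test of 3 against 3 cannot go below p = 0.10, so no such test was used. Gene positions come from GENCODE M21 (GRCm38) by Ensembl identifier, and promoters from RefSeq (GRCm38.p6); coordinates are the reference's, since the files hold none.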

Additional observations from a re-analysis of the deposited data

How the results depend on the processing

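Limits first: 3 libraries a group, many members below 5 CPM, and a receptor background that is lower in every Ad-hHIF2 than in every Ad-GFP library. All gene-level statements are relative to TMM scaling; total counts moved the median of all genes by 0.24, log2(TPM + 1) by 0.12 and log2(TPM + 0.1) by 0.30 in Ad-hHIF2 against Ad-GFP. The cause of the shifts below was not tested.

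In Ad-hHIF2 against Ad-GFP, leaving out 1 library at a time gave 1715 to 2550 genes higher (2381 with all) and 1330 to 1989 lower (2035), 5 to 8 S-phase genes lower (7), 4 to 8 mitotic genes lower (8), S-phase medians of -0.317 to -0.194 and mitotic medians of -0.486 to -0.383. Total counts gave 828 genes lower, 2 S-phase and 3 mitotic genes lower and medians of -0.0624 and -0.15. On log2(TPM + 1) and log2(TPM + 0.1), 814 and 899 genes were higher, 196 and 210 lower, no member was called (0 S-phase higher, 0 lower, 0 mitotic lower), and the medians were 0.0486 and 0.101 for S-phase and -0.00473 and -0.0328 for mitotic genes; Mcm2 turned to 0.0269 and 0.0216, Mcm6 to 0.116 and 0.166 and Top2a to 0.0412 and 0.0687. A 2-fold minimum left 0 S-phase genes higher, 2 S-phase and 2 mitotic genes lower, and an adjusted p below 0.01 left 4 and 2 lower. At least 10 counts in every library gave a mitotic median of -0.45. The background covariate, fitted on all 9 libraries, gave an S-phase median of -0.129 (-0.32 in that fit without it) and turned E2f1 to 0.633, and the fit without both doubted libraries gave -0.191. The list means differed by -0.202 (S-phase) and -0.302 (mitotic) on log2(CPM + 1) and by 0.056 and 0.00531 on log2(TPM + 1).

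In Ad-hHIF1 against Ad-GFP, where edgeR called 0 genes, no filter gave 258 higher and 126 lower with 2 S-phase genes higher, DESeq2 68 and 76, limma-voom 4 and 1, the fit of 9 libraries 6 and 1, the background covariate 6 and 1, and the fit without both doubted libraries 3 higher. The S-phase median (0.0903) was 0.161 by total counts, 0.18 on log2(TPM + 0.1) and 0.0433 to 0.106 with 1 library left out. The mitotic median (0.0111) was 0.0977 by total counts, 0.101 on log2(TPM + 0.1), 0.0833 without both doubted libraries and -0.000431 to 0.0504 with 1 library left out.

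In Ad-hHIF2 against Ad-hHIF1, leaving out 1 library gave 1483 to 2256 genes higher (2137), 1111 to 2079 lower (1871), 4 to 10 S-phase and 3 to 12 mitotic genes lower, and medians of -0.386 to -0.321 and -0.499 to -0.36. Total counts gave 804 genes lower, 2 S-phase and 2 mitotic genes lower and medians of -0.195 and -0.261. On the 2 TPM scales 315 and 381 genes were higher, 52 and 79 lower, 0 members called, and the medians were -0.0162 and -0.0659 for S-phase and -0.0494 and -0.135 for mitotic genes. The background covariate gave 1190 genes higher, 1108 lower, 0 S-phase genes higher, 3 S-phase and 5 mitotic genes lower and an S-phase median of -0.21. A 2-fold minimum left 0 S-phase genes higher and 2 S-phase and 0 mitotic genes lower, and an adjusted p below 0.01 left 4 and 3 lower. The mitotic median was -0.39 with at least 10 counts in every library and -0.393 by limma-voom.

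The labels do not say what an equal replicate number marks. Correlations of deviations between same-numbered samples were 0.0664 to 0.118 in Ad-hHIF2 against Ad-GFP, above those of differently numbered samples (at most 0.054), but -0.0824 to 0.0915 and -0.181 to -0.0627 in the other 2 comparisons, so the block was kept as an alternative. With the replicate block, Ad-hHIF2 against Ad-GFP called 2 S-phase genes higher, 8 lower and 7 mitotic genes lower (2496 genes higher and 2135 lower in all). In promoters of 150 bases before to 50 after the start, the shares of all promoters were 12.0% for the CHR, 28.6% for CCAAT, 4.66% for the E2F core and 35.1% for the hypoxia response element core.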
